A study of Mus musculus with 3 samples.

Results

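Trp53 and 9 genes that p53 is known to activate (Cdkn1a, Mdm2, Ccng1, Bax, Bbc3, Zmat3, Trp53inp1, Phlda3 and Plk2) were followed in mouse esophageal PC cells by droplet single-cell RNA sequencing. They were taken from the 32287 counted features by gene symbol, and all 10 were found. The list was chosen with earlier results of these data known. PC cells came from esophageal organoids of Trp53 floxed/floxed mice, in which Ad-Cre-EGFP, an adenovirus that delivers Cre recombinase, removed Trp53 and CRISPR/Cas9 then knocked out Cdkn2a. The dissociated cells were grown in DMEM with 10% FBS, at first with the ROCK inhibitor Y-27632 and later without it. They carried constitutive Cas9, were transfected with a barcode library, and were sorted as live RFP-positive cells. Per the labels, all cells analysed came from 1 culture made with both engineered losses. Whether each single cell carries both was not checked, and whether the culture grew from 1 clone is not stated. The levels below are therefore the baseline of a culture labelled as Trp53-deleted, with no Trp53-intact culture beside it. There is no replicate check, and no p-value is given.

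p53 is a transcription factor that is kept scarce by Mdm2, a ubiquitin ligase and itself a p53 target, so that the pair forms a feedback loop. After DNA damage or oncogene activation p53 accumulates and switches on genes that stop the cell cycle, trigger apoptosis or repair DNA. The Cdkn2a locus encodes p19Arf, which restrains Mdm2, and p16Ink4a, which restrains the cyclin D kinases. In stratified epithelia such as the esophagus, the related factor p63 (Trp63) maintains basal cells and can bind many of the same DNA sites.

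p53 binds DNA as a tetramer at pairs of a 10-base motif, the p53 decamer. The promoters of the members were searched for this consensus, of which a single copy is only part of such a pair. RefSeq promoter windows on GRCm38.p6, each 300 bases long with 250 before and 50 after a gene's start, were present for 8 of the 10 members, without Zmat3 and Trp53inp1. A decamer, which reads alike on both strands, lay in 5 of the 11 windows of these genes, in 5 of the 8 genes, and in 8.36% of all 32851 windows. The stretches follow with the decamer in capitals, written 5′ to 3′ on the strand of the gene.
Cdkn1a, chr17:29090881-29090962, plus strand: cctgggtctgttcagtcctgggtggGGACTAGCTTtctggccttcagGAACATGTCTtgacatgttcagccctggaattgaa
Trp53, chr11:69580259-69580318, plus strand: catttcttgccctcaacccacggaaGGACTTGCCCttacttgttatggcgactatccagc
Mdm2, chr10:117710910-117710969, minus strand: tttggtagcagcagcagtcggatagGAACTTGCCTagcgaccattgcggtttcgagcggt
Ccng1, chr11:40755437-40755496, minus strand: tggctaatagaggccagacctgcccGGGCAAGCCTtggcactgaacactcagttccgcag
Bax, chr7:45467065-45467124, minus strand: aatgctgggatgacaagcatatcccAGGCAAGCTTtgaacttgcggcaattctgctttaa

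The first of 2 Cdkn1a windows held 2 decamers, starting 73 and 51 bases before its start and separated by 12 bases. The second, at 29093519 to 29093818 around another start of the gene, held 0. Of all windows, 0.359% held 2 or more. Only exact matches to the consensus were marked. The single decamers started 75 bases before the start in Trp53, 186 in Mdm2, 185 in Ccng1 and 201 in Bax. The windows of Bbc3, Phlda3 and Plk2 held no such letters. A match describes the sequence and does not show binding, and sites outside the window were not searched.

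The matrix held 18116 barcodes with 47720034 UMIs (unique molecules counted), beside about 20000 recovered cells stated in the labels. Barcodes were kept from 500 genes and 1000 UMIs upward, unless over 20% of their UMIs were mitochondrial. This left 14925 cells with a median of 2955 UMIs and 1499 genes. Levels are given as CPM, the UMIs of a gene per 1000000 UMIs summed over a set of cells, with exact 95% Poisson intervals. All intervals cover counting error only. Levels are compared between sets of cells and not between genes. UMIs count molecules, so CPM was not divided by gene length.

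Cells were assigned to classes by UMIs of marker genes that include none of the members. Epithelial cells (11767) had at least 3 UMIs over at least 2 of Epcam, Cdh1, Cldn7, Krt5 and Krt14 and at most 1 mesenchymal UMI. Mesenchymal-like cells (1248) met the same minimum over Vim, Col1a1, Col1a2, Col3a1, Col5a1, Aebp1, Dcn and Zeb1 with at most 2 epithelial UMIs. A further 147 mixed-marker cells passed both minimums, and 1763 cells stayed ungated. Cells passing the minimum on 12 genes of the G2 and mitosis phases were called G2M, and cells passing it only on 12 replication genes were called S. Cells with at most 1 UMI of either list are described as outside division. These comprised 8968 epithelial cells (median 2869 UMIs) and 1131 mesenchymal-like cells (median 3319 UMIs), beside 2087 epithelial and 60 mesenchymal-like G2M cells. The S classes were small, at 225 epithelial and 6 mesenchymal-like cells. Another 487 epithelial and 51 mesenchymal-like cells lay between these limits. At the minimum itself lay 140 mesenchymal-like cells with exactly 3 mesenchymal UMIs and 417 epithelial cells with exactly 3 epithelial ones.

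The class names were checked with markers that the gates did not use. Krt17, Itgb4, Cldn4, Esrp1 and Trp63 summed to 2518 CPM in epithelial and 218.2 CPM in mesenchymal-like cells outside division. Zeb2, Col5a2, Sparc, Grem1 and Fbn1 summed to 182.3 CPM and 2381 CPM in the same classes. Of 7 immune markers, Adgre1 and Tyrobp had 0 UMIs in kept cells, Ptprc, Cd3e and Lyz2 had 1 each, Cd79a had 4 and Cd68 had 339. Their sum was 6.85 CPM in epithelial and 14.1 CPM in mesenchymal-like cells outside division. Of 5 endothelial markers, Cdh5 and Emcn had 0 UMIs, Kdr 2, Tek 7 and Pecam1 56, with a sum of 1.52 and 0.523 CPM. The labels call the tissue esophageal cancer. Over all kept cells, before any gate on lineage, the basal squamous genes Trp63, Krt5 and Krt14 stood at 141.1, 628.1 and 1145 CPM.

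All 10 members were detected at baseline, and together they made up 789.8 CPM (781.6 to 798.0) of the kept cells. Trp53 itself (ENSMUSG00000059552, chromosome 11, 69580359 to 69591873 on GRCm38) gave 2126 UMIs, or 46.8 CPM (44.8 to 48.8), with a UMI in 12.5% of cells. The labels do not say which exons were removed, and 3′ counting can still detect a transcript that lacks internal exons. The Trp53 UMIs are therefore no check of the deletion.

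Among regulators and cell-cycle members, Cdkn1a (ENSMUSG00000023067, chromosome 17, 29090976 to 29100727), which encodes the cyclin-dependent kinase inhibitor p21, stood at 76.3 CPM (73.8 to 78.9) with a UMI in 16.0% of cells. Mdm2 (ENSMUSG00000020184, chromosome 10, 117688875 to 117710758) stood at 39.1 CPM (37.3 to 40.9) and Ccng1 (ENSMUSG00000020326, chromosome 11, 40748552 to 40755311), the gene of cyclin G1, at 30.4 CPM (28.9 to 32.1). Plk2 (ENSMUSG00000021701, chromosome 13, 110395046 to 110400844), a polo-like kinase, stood at 101.5 CPM (98.6 to 104.5).

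Of the members tied to cell death or growth restraint, Bax (ENSMUSG00000003873, chromosome 7, 45461697 to 45466898), the pore-forming effector of mitochondrial apoptosis, gave 283.8 CPM (278.9 to 288.7) and was detected in 52.6% of cells. Bbc3 (ENSMUSG00000002083, chromosome 7, 16308393 to 16318205), which encodes the BH3-only protein PUMA, gave 10.8 CPM (9.83 to 11.8) and was detected in 3.12% of cells. Phlda3 (ENSMUSG00000041801, chromosome 1, 135766119 to 135769136), a repressor of Akt, gave 156.8 CPM (153.2 to 160.5). Trp53inp1 (ENSMUSG00000028211, chromosome 4, 11156431 to 11174379), a stress-induced nuclear protein, gave 29.4 CPM (27.9 to 31.0). Zmat3 (ENSMUSG00000027663, chromosome 3, 32334792 to 32366014), an RNA-binding zinc finger protein, gave 14.8 CPM (13.7 to 16.0). These shares rise with depth: after each cell was thinned at random to 1500 UMIs, leaving out 1644 shallower cells, Bax was seen in 34.0%, Phlda3 in 21.2%, Plk2 in 13.4%, Cdkn1a in 9.52%, Trp53 in 6.48% and Mdm2 in 5.40% of cells.

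**Figure D1:**
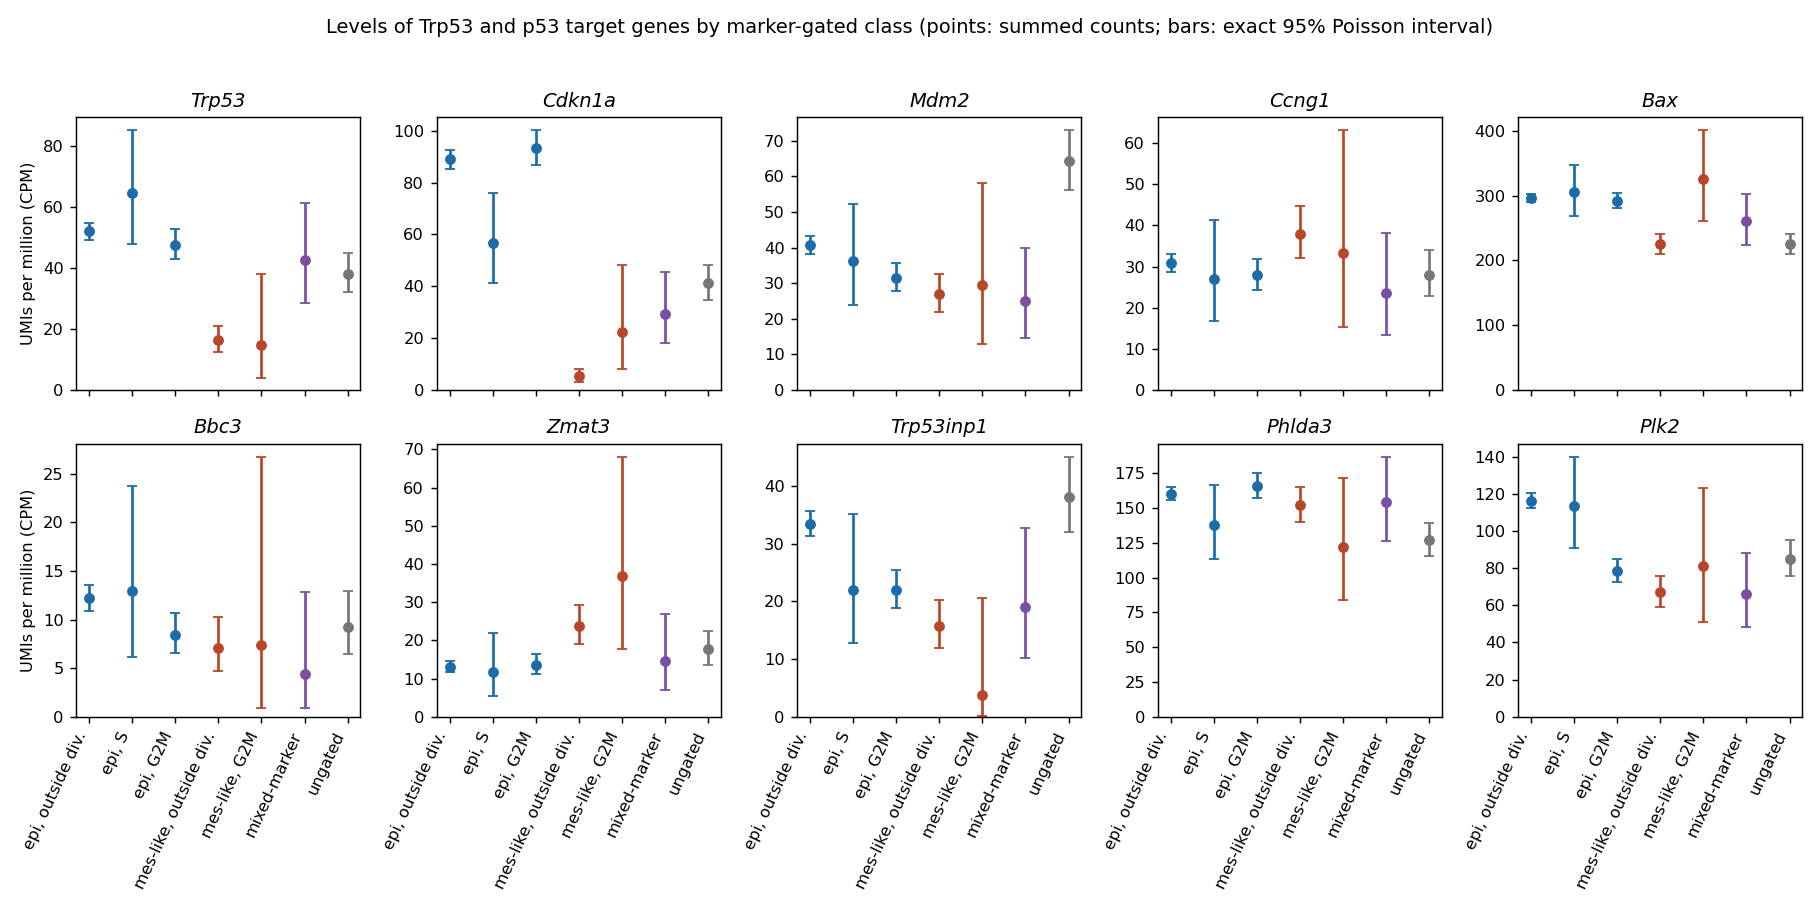
Each panel shows the level of 1 gene in CPM (UMIs per 1000000) in 7 marker-gated classes, with exact 95% Poisson intervals as bars (epi: epithelial; mes-like: mesenchymal-like; div.: division). Trp53 and Cdkn1a are lowest in the mesenchymal-like classes shown (S is left out), at 14.8 to 16.2 and 5.23 to 22.2 CPM, while Phlda3 stays between 122.0 and 166.0 CPM.

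Trp53 stood at 52.0 CPM in epithelial cells outside division, 64.4 in epithelial S, 47.6 in epithelial G2M, 42.6 in mixed-marker and 38.1 in ungated cells. Mesenchymal-like cells lay below all of these, at 16.2 CPM outside division and 14.8 CPM in G2M. The 6 mesenchymal-like S cells, with 2 Trp53 UMIs at 77.4 CPM (9.37 to 279.5), were left out of this order. The only neighbours in this order whose intervals did not overlap were the ungated and the mesenchymal-like cells outside division.

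Cdkn1a stood at 93.2 CPM in epithelial G2M, 88.9 in epithelial cells outside division, 56.7 in epithelial S, 41.1 in ungated, 29.4 in mixed-marker, 22.2 in mesenchymal-like G2M and 5.23 CPM in mesenchymal-like cells outside division. The intervals separated the first pair from epithelial S, and mesenchymal-like G2M from mesenchymal-like cells outside division. Cdkn1a had the widest span of the 10 members over these 7 classes, 17.8-fold from lowest to highest. The spans of Phlda3, Bax, Ccng1 and Plk2 were 1.36-fold, 1.45-fold, 1.62-fold and 1.76-fold.

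The order differed for Mdm2, which was highest in ungated cells at 64.2 CPM (56.3 to 72.9) and lay between 24.9 and 40.7 CPM in the other 6 classes. Ungated cells were shallower, with a median of 1637 UMIs, 3.89% mitochondrial UMIs and 2.50% of UMIs from the nuclear RNA Malat1, against 2869 UMIs, 2.81% and 1.75% in epithelial cells outside division. The part of these differences in the Mdm2 level was not tested. Trp53inp1 was also highest in ungated cells, at 38.1 CPM, though its interval overlapped that of epithelial cells outside division at 33.4 CPM. Zmat3 stood at 37.0 CPM in mesenchymal-like G2M, 23.8 in mesenchymal-like cells outside division, and 11.6 to 13.6 CPM in the epithelial classes. The intervals of all neighbours in its order overlapped. Those of mesenchymal-like (19.2 to 29.2) and epithelial cells (11.7 to 14.5) outside division, which are not neighbours, did not.

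Outside division, Cdkn1a and Trp53 were much lower in mesenchymal-like than in epithelial cells, while most other members differed by less than 2-fold. A difference was called at a CPM ratio of at least 2 with a higher level of at least 10 CPM and Poisson intervals that did not overlap. By this rule 3 of the 10 members were lower (Cdkn1a, Trp53 and Trp53inp1) and 0 were higher. Of 9004 genes compared, 22.6% were called, 10.8% lower and 11.8% higher. The median ratio was 0.621 over the members and 1.01 over all genes compared.

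Cdkn1a gave 20 UMIs in 20 of the 1131 mesenchymal-like cells, never more than 1 in a cell. It gave 2338 UMIs in 1585 of the 8968 epithelial cells, with up to 16 in a cell. The CPM ratio was 0.0588 (95% interval 0.0359 to 0.0911), or 17.0-fold lower. After thinning, 0.536% of mesenchymal-like and 10.6% of epithelial cells had a Cdkn1a UMI. In the same thinned mesenchymal-like cells, epithelial markers not used in the gates were seen in 1.79% (Cldn4), 0.268% (Esrp1) and 0.179% (Trp63) of cells, against 48.7%, 10.2% and 20.5% of epithelial cells. As a raw share, the mesenchymal-like value of Cdkn1a lay below that of Cldn4 and above those of Esrp1 and Trp63. Its epithelial share lay below those of Cldn4 and Trp63, and the shares were not scaled to the epithelial ones. These shares leave out Krt17 and Itgb4, the other markers of that check, and all 5 summed to 218.2 CPM in mesenchymal-like cells. Whether the 20 Cdkn1a UMIs were free RNA was not tested.

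Trp53 gave 62 UMIs at 16.2 CPM in mesenchymal-like cells and 1366 UMIs at 52.0 CPM in epithelial cells. The ratio was 0.312 (0.238 to 0.403), or 3.20-fold lower, with a UMI in 2.86% and 7.23% of thinned cells. Trp53inp1 gave 60 UMIs at 15.7 CPM and 879 UMIs at 33.4 CPM, a ratio of 0.469 (0.355 to 0.610). This call was lost when gates and levels were both taken from thinned cells, where the ratio was 0.605. It was also lost when cells with any UMI of the opposite list or the cells highest in Malat1 were left out.

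The remaining 7 members were not called. With gates and levels from thinned cells, however, Bbc3 was called lower, with a ratio of 0.285 (0.0767 to 0.745). It was also called lower without the 10% of cells with the most UMIs, at 0.495. Below 1 with an interval that left out 1 were Plk2 at 0.578 (0.507 to 0.657), Bbc3 at 0.580 (0.377 to 0.860), Mdm2 at 0.662 (0.536 to 0.811) and Bax at 0.758 (0.705 to 0.813). Phlda3 had a ratio of 0.949 (0.869 to 1.04). Above 1 were Ccng1 at 1.23 (1.02 to 1.47) and Zmat3 at 1.82 (1.43 to 2.30). Over the 9 targets the ratios thus ran from 0.0588 to 1.82.

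**Figure D2:**
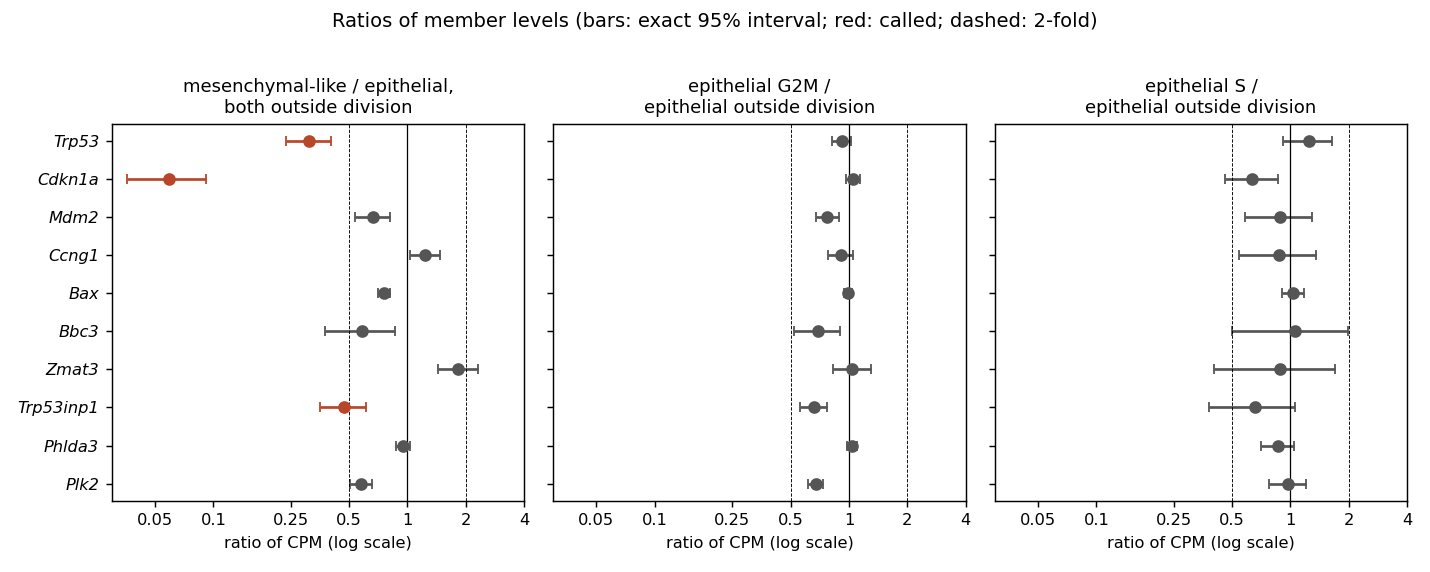
Points show the ratio of CPM between classes for each gene on a log axis, with exact 95% intervals, and red points met the call rule. Left: mesenchymal-like over epithelial cells outside division, where Cdkn1a (0.0588), Trp53 (0.312) and Trp53inp1 (0.469) were called; centre and right: epithelial G2M and S over epithelial cells outside division, where 0 of 10 were called.

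Another 44 genes of the p53 pathway were read in the same comparison, and 29 of them reached 10 CPM. Of these, 8 were lower in mesenchymal-like cells, 4 were higher and 17 were not called, with a median ratio of 0.907. Over all genes compared, 10.8% were lower and 11.8% higher, with a median ratio of 1.01. The lower genes included Trp63, at 2.62 against 156.9 CPM, and Igfbp3, a secreted IGF-binding protein, at 47.1 against 1033 CPM. They also included Perp, a desmosomal p53 and p63 target, at 117.2 against 545.9 CPM. Sfn, which encodes the 14-3-3 sigma arrest protein of stratified epithelia, stood at 180.2 against 783.7 CPM, and Ephx1, an epoxide hydrolase, at 15.7 against 46.9 CPM.

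The higher genes were Thbs1, the matrix protein thrombospondin 1, at 6200 against 1446 CPM, and 3 others. Pmaip1, which encodes the BH3-only protein NOXA, stood at 73.0 against 31.8 CPM, and Apaf1, the apoptosome scaffold, at 37.4 against 16.9 CPM. Cdkn2a, the other engineered gene, stood at 1304 against 602.3 CPM, and a CRISPR edit need not remove its transcript.

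By role, the 3 secreted products split into 1 higher, 1 lower and 1 below 10 CPM in both classes. Of 9 apoptosis genes, 5 reached 10 CPM, of which 2 were higher and 1 was lower. Of 7 arrest genes, 3 reached it and 2 of those were lower. Among 13 upstream regulators, 11 reached it, with 1 higher and 2 lower. Neither Mdm4, the Mdm2 partner that also restrains p53, nor Ppm1d, a phosphatase that does so, was called: their ratios were 0.840 (0.732 to 0.961) and 0.688 (0.459 to 0.997). Of 5 repair genes 1 was lower, and of 3 metabolic genes that reached 10 CPM 1 was lower.

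**Figure D3:**
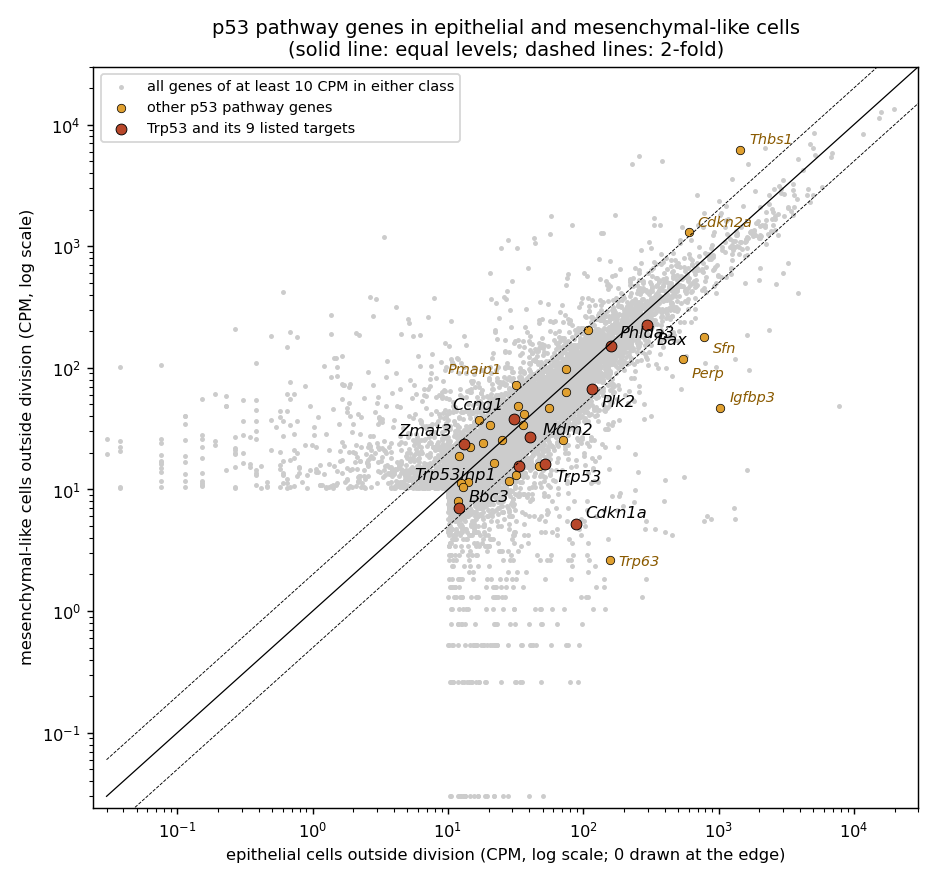
Each point is a gene with at least 10 CPM in either class, placed by its CPM in epithelial (x) and mesenchymal-like (y) cells outside division on log axes, with the 10 members in red and other p53 pathway genes in orange. Most members lie within the dashed 2-fold lines, Cdkn1a (88.9 and 5.23 CPM) lies far below them, and pathway genes fall on both sides.

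Within the epithelial class, no member was called between G2M cells and cells outside division (0 of 10, where 7.0% of 8740 genes were called). Cdkn1a, an inhibitor of cell-cycle kinases, stood at 93.2 CPM in G2M cells and 88.9 CPM outside division, a ratio of 1.05 (0.964 to 1.14). Plk2 was lower by less than 2-fold, at 78.5 against 116.3 CPM with a ratio of 0.675 (0.619 to 0.735). The ratio was 0.658 (0.557 to 0.774) for Trp53inp1, 0.691 (0.52 to 0.90) for Bbc3 and 0.775 (0.673 to 0.889) for Mdm2. Trp53, Ccng1, Bax, Zmat3 and Phlda3 lay between 0.907 and 1.04. G2M cells were deeper (median 3742 UMIs) with a lower Malat1 share (0.787%), and the part of this in these ratios was not tested.

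The wider pathway had 4 higher genes and 1 lower gene of 32 that reached 10 CPM, where 7.0% of all genes compared were called. The higher ones were Ckap2, a spindle protein, with a ratio of 33.8, the checkpoint kinases Chek1 (19.3) and Chek2 (2.06), and Gtse1, a G2 and S phase protein that restrains p53 (4.85). The lower one was Thbs1 at 0.404. Ckap2, Chek1 and Gtse1 were at most 2.51 CPM outside division.

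In the 225 epithelial S cells 0 of 10 members were called, with 6.84% of 8830 genes called. Cdkn1a had 44 UMIs at 56.7 CPM, a ratio of 0.638 (0.462 to 0.859) to cells outside division. Trp53 had 50 UMIs at 64.4 CPM, a ratio of 1.24 (0.916 to 1.64). The other 8 intervals all included 1, and that of Bbc3, with 10 UMIs in S cells, reached from 0.503 to 1.97, against 0.901 to 1.17 for Bax. In the pathway lists Chek1 and Ckap2 were higher and Xpc, a nucleotide excision repair gene, was lower, with ratios of 35.1, 5.65 and 0.324.

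Dividing mesenchymal-like cells were few. In the 60 G2M cells 1 member was called, Cdkn1a at 22.2 against 5.23 CPM, a ratio of 4.24 (1.39 to 10.9), with 6.89% of 9163 genes called. It rested on 6 UMIs in 3 cells, 4 of them in 1 cell. Bax stood at 325.2 against 224.7 CPM, a ratio of 1.45 (1.15 to 1.80). The 6 mesenchymal-like S cells held 8 Bax, 7 Plk2, 3 Phlda3 and 2 Trp53 UMIs and none of the other 6 members. There 3 UMIs equal 116.0 CPM, so an absence says little. Plk2 met the call rule with its 7 UMIs from 3 cells, with 2.16% of 8764 genes called.

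Mixed-marker cells were deep, with a median of 4527 UMIs, and whether they are doublets was not tested. In the 110 of them outside division, 1 of 10 members was called against epithelial cells, with 11.3% of 9071 genes called. This was Cdkn1a, with 14 UMIs at 28.2 CPM, a ratio of 0.317 (0.173 to 0.532). Trp53 stood at 40.2 CPM, a ratio of 0.774 (0.471 to 1.20), and Plk2 at 62.3 CPM, a ratio of 0.536 (0.364 to 0.762). When gates and levels were both taken from thinned cells, which changes the cells in each class, the Cdkn1a call was lost, at 0.473 (0.012 to 2.64). Without the 10% of cells with the most UMIs its ratio was 0.135 and Plk2 was called as well.

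Detection of several members in 1 cell was read in 8155 epithelial cells outside division, each thinned to 1500 UMIs. Of these, 29.2% had a UMI of none of the 10 members, 41.1% of 1, 22.7% of 2, 5.74% of 3 and 1.15% of 4, and 8 cells had 5 or more. The 45 pairwise Pearson correlations of UMIs over cells ran from -0.0333 to 0.0404 with a median of -0.00119. Correlations of this size in sparse counts are given as a description only.

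Cells with a Trp53 UMI (590) were set against those without (7565), and 0 of the other 9 members were called, with 0.698% of 8602 genes called. Cdkn1a stood at 67.8 CPM in cells with a Trp53 UMI and 90.7 CPM in cells without, a ratio of 0.748 (0.566 to 0.970). Mdm2 had a ratio of 1.14 (0.799 to 1.58). The remaining 7 ratios lay between 0.863 and 1.18, each with an interval that included 1. Cells with an Mdm2 UMI (463 of 8155) gave the same count, 0 of 9, with 0.679% of 8685 genes called.

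Cdkn1a was the most unevenly spread member. Its variance-to-mean ratio over thinned cells was 1.44, where 1 is the value of independent counts. Plk2 followed at 1.17 and Phlda3 at 1.09, and the other 7 lay between 0.995 and 1.03. Over 7654 genes at least as abundant as the lowest member the median was 1.02 and the 90th percentile 1.09. Of the thinned epithelial cells 89.4% had no Cdkn1a UMI, 707 had 1, 122 had 2 and 39 had 3 or more, whereas of 1120 mesenchymal-like cells 1114 had 0 and 6 had 1.

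Between cells with 3 or more Cdkn1a UMIs and cells with none, 0 of 9 members were called, with 3.43% of 9279 genes called. Under several other settings, another thinning seed among them, 1 member (Bax or Phlda3) was called. The 39 cells with 3 or more Cdkn1a UMIs held few UMIs of each member, such as 2 of Mdm2 and 13 of Plk2. The comparison was therefore repeated with 868 cells that had at least 1 Cdkn1a UMI, a limit chosen after seeing the data. Again 0 of 9 members were called, with 1.54% of 8494 genes called, and the ratio was 1.05 (0.772 to 1.40) for Mdm2, 0.938 (0.659 to 1.30) for Ccng1, 0.978 (0.876 to 1.09) for Bax and 1.17 (1.02 to 1.34) for Phlda3.

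To see which epithelial states went with each member, the thinned cells were ranked by the summed UMIs of 9 gene lists, none of which holds a member. Cells above the 75th percentile of a list were compared with cells at or below its median. Of the 90 pairs of list and member, 3 were called, all of them Cdkn1a at a higher level. Over all genes compared, the share called ran from 0.13% to 3.65%, depending on the list.

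Cdkn1a stood at 182.5 CPM in the 1852 cells highest in squamous differentiation genes (Krt13, Krt4, Krt6a, Ivl, Sprr1a, Ly6d and others) and at 61.0 CPM in the 5083 lowest. The ratio was 2.99 (2.63 to 3.40), and 3.04% of 8528 genes were called. For immediate early genes (Fos, Jun, Egr1, Ier3, Atf3 and others), which respond within minutes to growth factors and stress, the levels were 170.5 and 64.4 CPM. The ratio was 2.65 (2.29 to 3.07), and 1.94% of 8508 genes were called. For Ltf and Lcn2, genes of secreted antimicrobial proteins, the levels were 170.7 CPM in 1277 cells with a UMI of either gene and 73.9 CPM in 6878 cells with none. The ratio was 2.31 (2.02 to 2.63), and 3.65% of 8557 genes were called. Without the 10% of cells with the most UMIs this last ratio was 1.99 and missed the threshold, as it did without the cells highest in Malat1.

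Hypoxia genes and basal keratins went with smaller Cdkn1a ratios of 1.67 (1.44 to 1.92) and 1.66 (1.45 to 1.89), which were not called, with 0.553% and 0.935% of genes called. For the integrated stress genes (Atf4, Ddit3, Trib3 and others) the ratio was 1.10 (0.963 to 1.27), with 0.13% of genes called. With basal keratins Phlda3 had a ratio of 1.38 (1.25 to 1.53), Trp53inp1 of 0.621 (0.465 to 0.818) and Bbc3 of 0.580 (0.349 to 0.922). Phlda3 had 1.28 (1.16 to 1.42) with squamous genes, and Zmat3 had 0.582 (0.372 to 0.883) with chemokines. None of these was called. Plk2 had 1.39 (1.21 to 1.60) with immediate early genes. In those 3 called comparisons Mdm2 stood at 0.886 (squamous), 1.06 (immediate early) and 0.893 (Ltf and Lcn2), each interval including 1. Bbc3 had its lowest ratio, 0.454 (0.212 to 0.865), with laminin-332 genes and Krt7, from 10 UMIs in the upper cells. It was not called there, but met the rule with a gate minimum of 2 UMIs, with no UMI of the opposite list and without the 10% of cells with the most UMIs. The percentages of genes called were 2.26 for the laminin list, 2.81 for chemokines and 1.25 for interferon genes, none of which had a called member.

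**Figure D4:**
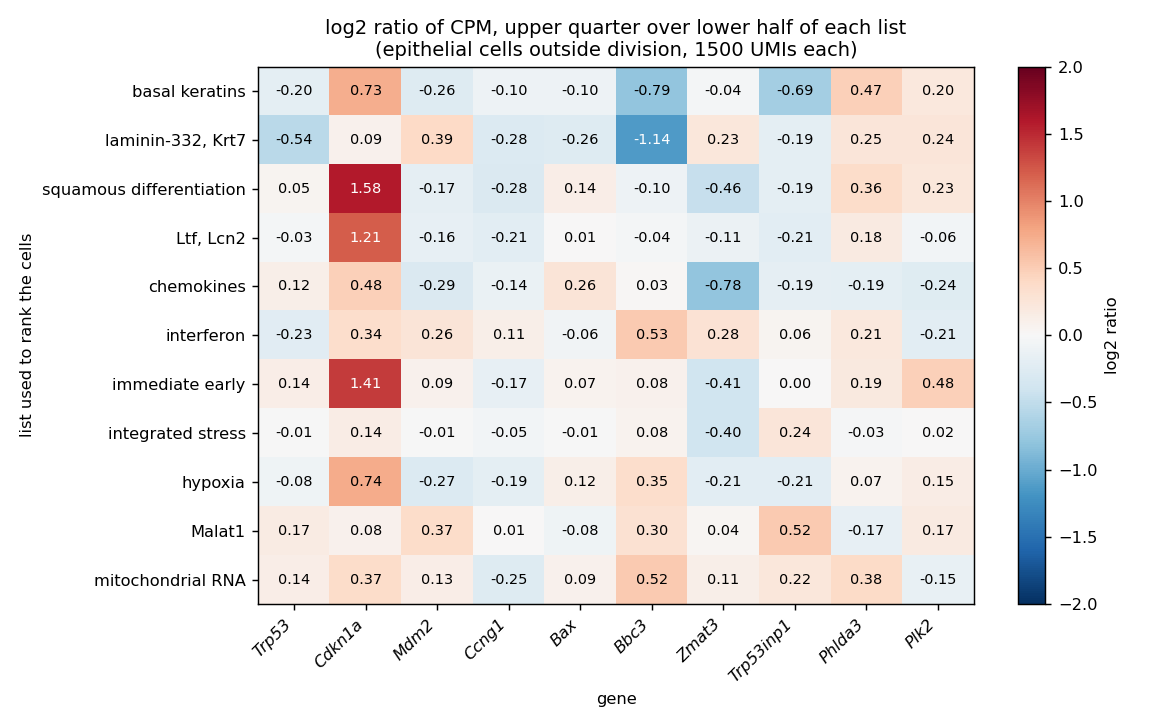
Each cell of the grid gives the log2 ratio of CPM of a gene (columns) between thinned epithelial cells above the 75th percentile and cells at or below the median of a gene list (rows); the Malat1 and mitochondrial rows rank cells by those RNAs. The darkest cells are all in the Cdkn1a column, at 1.58 for squamous differentiation, 1.41 for immediate early genes and 1.21 for Ltf and Lcn2, and Bbc3 with laminin-332 genes follows at -1.14.

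Squamous and immediate early genes each went with Cdkn1a in cells not high for the other. The 530 cells above the 75th percentile of both lists had 266.7 CPM (232.0 to 305.1) and the 1322 cells above it for squamous genes alone had 148.8 CPM (132.3 to 166.7). The 811 cells above it for immediate early genes alone had 107.7 CPM (90.04 to 127.8), and the 5492 cells above it for neither had 54.7 CPM (49.8 to 60.04). None of the 4 intervals overlapped. Over the same 4 sets Mdm2 lay between 35.2 and 41.9 CPM and Ccng1 between 28.2 and 34.2 CPM, with intervals that all overlapped. Plk2 ran from 111.2 CPM in cells with neither to 166.0 CPM in cells with both, and Phlda3 from 156.8 to 220.1 CPM.

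**Figure D5:**
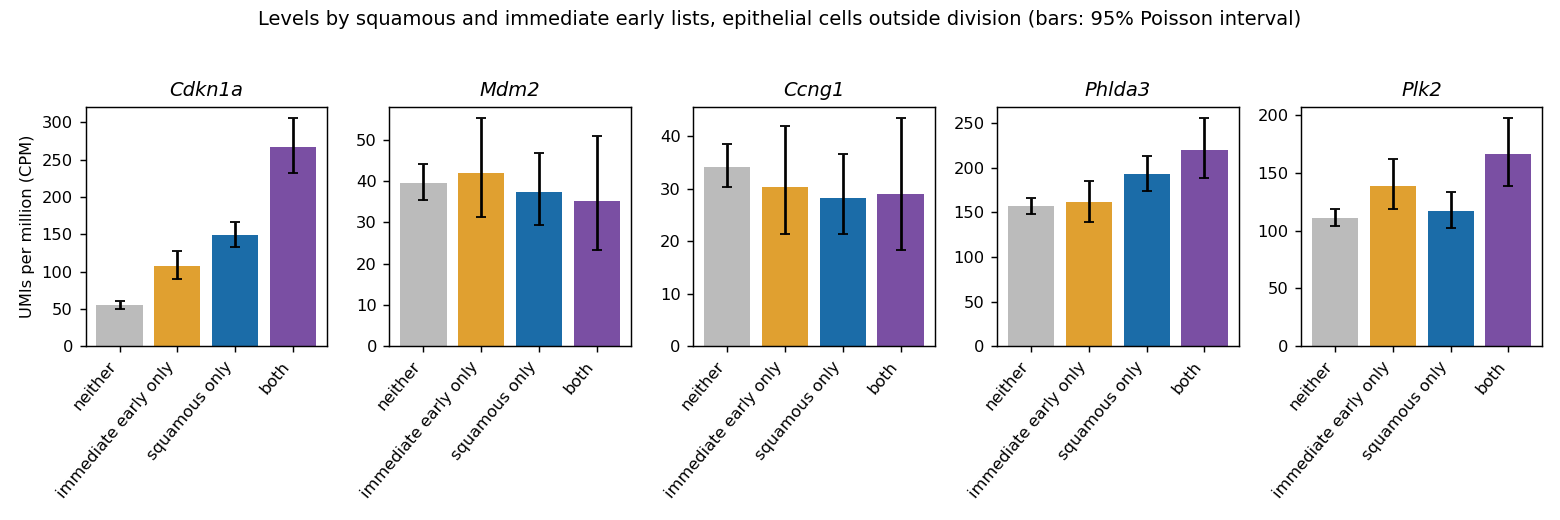
Bars give the CPM of 5 members in thinned epithelial cells outside division, split by whether the squamous and immediate early lists are above their 75th percentiles, with 95% Poisson intervals. Cdkn1a climbs from 54.7 CPM with neither to 266.7 CPM with both, while Mdm2 and Ccng1 stay within 35.2 to 41.9 and 28.2 to 34.2 CPM.

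The shares of Malat1 and of mitochondrial RNA, which vary with RNA quality, were read in the same way. Between cells above the 75th percentile and at or below the median of Malat1, Trp53inp1 had a ratio of 1.44 (1.13 to 1.83) and Mdm2 of 1.29 (1.03 to 1.60). Cdkn1a had 1.06 (0.913 to 1.23). Ranked by mitochondrial UMIs, Cdkn1a had 1.29 (1.12 to 1.49) and Phlda3 1.30 (1.17 to 1.45). No member was called in either, with 1.08% and 1.44% of genes called.

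The genes whose levels followed Trp53 most closely over the 8 classes were Snhg3, Tmem94 and Vps51, with Pearson r of log2(CPM + 1) of 0.975, 0.964 and 0.964 among 6298 genes of at least 20 CPM. For Cdkn1a they were Trim29, Ttc9 and Adam8 at 0.994, 0.994 and 0.993. The classes share 1 library and differ in depth, and 42 genes reached an r of 0.9 with Trp53 and 383 with Cdkn1a. Without the mesenchymal-like S class these numbers were 329 and 135. Trim29 stood at 76.3 CPM in epithelial and 5.49 CPM in mesenchymal-like cells outside division. The names depend on that class of 6 cells too: without it the genes closest to Trp53 were Igfbp3, Sprr2a3 and Krt7, and those closest to Cdkn1a were Ehd4, Fads2 and Vsig10.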

How the data were processed

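The authors deposited 1 matrix of raw UMI counts per gene and barcode, and per the file headers CellRanger 8.0.1 made it. The build mm10 and Scanpy 1.8.2 are named in the submitters' processing notes, with no step attached. The labels list 3 libraries (gene expression with a 10x 3′ v2 kit, barcodes and scar regions) of 1 culture. Neither they nor the file say which gave the reads, so the matrix was used as 1 pooled sample, although the design had assumed the gene expression library. The lowest barcode total was 500 UMIs.

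From these counts, filters, gates, CPM, exact intervals (Poisson, Clopper-Pearson for shares, conditional binomial for ratios) and thinning to 1500 UMIs (seed 1) were computed with Python 3.11.15, numpy 2.4.6 and scipy 1.17.1. A gene with 0 UMIs has a limit of 3 UMIs. The members and lists were chosen with earlier results of these data known. Named genes are all members, up to 5 called pathway genes with the largest ratio per direction of a class comparison, the 3 genes most like Trp53 and Cdkn1a, and the markers. Genes outside this rule were named after their values were seen. One pathway gene is not reported here and was left out of the pathway counts.

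Of the 32287 feature IDs, 32235 were found in GENCODE M21. The call rule was tested on simulated Poisson counts of 8449 genes for the mesenchymal-like against epithelial comparison. It found 99 of 100 genes changed 4-fold, 0 of 100 changed 1.5-fold and 0 of 8250 unchanged genes. A 1.5-fold change lies below the ratio of 2 that the rule asks for. The real counts can spread more widely than Poisson counts, with a variance-to-mean ratio of 1.44 for Cdkn1a. The simulation therefore gives no rate of false calls for these data. No doublet caller was run and no doublets were removed. The alternatives were other gates, filters, denominators, thinning and call ratios. Where thinning was the alternative, the gates were set on the thinned cells as well, so the cells in each class changed.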

Additional observations from a re-analysis of the deposited data

Results flagged for a closer look

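Transcripts of 2 added sequences that no comparison above uses were counted in nearly every kept cell, with no control cells to set them against. GFP was detected in 99.99% of 14925 cells (95% interval 99.95 to 99.998) and Scar in 99.95% (99.90 to 99.98), where a count of 0 would allow up to 0.0201%. The labels mention Ad-Cre-EGFP and a scar library, and whether these UMIs come from them was not tested.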

How the results depend on the processing

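No paired analysis was possible because the 3 libraries have 1 replicate each and form 1 matrix. The summed member level of 789.8 CPM was 799.4 in thinned cells, 801.8 as a mean over cells and 855.5 without mitochondrial genes, GFP, Scar and Malat1 in the denominator. Between mesenchymal-like and epithelial cells outside division, Trp53 (2.54-fold to 3.42-fold lower) and Cdkn1a (12.9-fold to 24.4-fold lower) were called in 10 of 10 alternatives, Trp53inp1 in 7 of 10 and Bbc3, in 2 of 10 (range of ratios 0.285 to 0.650). At a ratio of 1.5 the count of 3 became 7 (40.9% of all genes called), in epithelial G2M and S cells 0 became 1 each (16.8% and 12.3%), in mixed-marker cells 1 became 2 (17.8%), and over the state lists 3 became 6 (4.84% of pairs of gene and list). At a ratio of 3 the state lists gave 0 (0.629%). The mesenchymal-like G2M call of Cdkn1a was lost (0 members) with gate minimums of 2 or 5 UMIs, thinned cells, no UMI of the opposite list, at least 1000 genes and 2000 UMIs, the other denominator, or without the cells highest in Malat1 (added after seeing the data). The mesenchymal-like S call was lost (0) at a gate minimum of 5, with no opposite UMI and without the 10% of cells with the most UMIs. Mixed-marker cells gave 3 at a gate minimum of 2, 0 when thinned, and 2 without the 10% deepest cells or as a mean over cells. Epithelial S gave 1 (Trp53inp1) at a gate minimum of 5. Cells with 3 or more Cdkn1a UMIs gave 1 lower or higher member instead of 0 with thinned gates or no opposite UMI (Bax), and with 1000 genes and 2000 UMIs, at most 10% mitochondrial UMIs, without the deepest cells or with another thinning seed (Phlda3). The cause of these moves was not tested. Of 243 alternative ratios of members, 230 stayed within the interval of the reported ratio and 13 left it. The CPM of single members in kept cells moved more often, with 65 of 100 alternatives inside the reported interval and 35 outside. Of 121 alternative counts and summed levels, 91 were the same, meaning within 1.5-fold for a count and within the interval for the summed level. No called ratio changed direction, and 1 uncalled ratio crossed 1 (Cdkn1a in epithelial G2M, 1.05 reported and 0.998 as a mean over cells). The low depth per cell and the single culture limit all of these values.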

Other observations

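The genes that went with Cdkn1a in single epithelial cells were read after the values were seen, and are given as a description. Between the 868 thinned cells with a Cdkn1a UMI and the 7287 without, the highest ratios were those of BC037156 at 15.2, Krt6b, a keratin of stressed and hyperproliferative epithelium, at 13.0, S100a9, a calprotectin subunit, at 10.9, Arg1, the urea cycle arginase, at 9.68, Psca, a surface antigen, at 9.37, and Duoxa2, a maturation factor of the dual oxidases, at 7.39. The lowest included Jag2, a Notch ligand, at 9.22 against 35.3 CPM, a ratio of 0.261 (0.134 to 0.461), and Postn, the matrix protein periostin, at 27.6 against 70.6 CPM, a ratio of 0.391 (0.272 to 0.547). Krt6b, S100a9 and Duoxa2 rest on 17, 22 and 22 UMIs in the cells with Cdkn1a, and Jag2 on 12. The interval of the Krt6b ratio ran from 5.73 to 30.6.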
